A study of Homo sapiens with 15 samples.

Results

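The genes described here detect nucleic acids out of place in a cell, carry that signal to the interferon genes, or keep it low. They were taken by name as a list of 10 genes (CGAS, IFIH1, TLR3, IFI16, STING1, MAVS, TBK1, IRF3, TREX1 and SAMHD1) from a table of 57272 genes. All 10 were in the table, and 9 passed the filter on low counts that left 15799 genes. TREX1 did not pass, because it had 0 counts in every library.

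RNA was sequenced from MRC-5 cells, a human fetal lung fibroblast line that stops dividing after a limited number of population doublings, in 5 conditions of 3 libraries each. Young cells at population doubling 30 were infected with a pWPIR-GFP lentivirus that was either empty or carried TRF2, the telomere protein encoded by TERF2, and were transfected with an siRNA pool that was either a control or directed at LMNB1, the gene of the nuclear lamina protein Lamin B1. The 3 young conditions were the empty vector with control siRNA, TRF2 with control siRNA, and the empty vector with siLMNB1. The 2 senescent conditions carried the empty vector or TRF2, had been infected before they reached senescence, and also received control siRNA. Per the study's methods the senescent cells with TRF2 had carried it over many doublings and were collected some doublings later than those with the empty vector, whereas young cells had carried it for days. Age in doublings and length of exposure cannot be told apart from TRF2 in the comparisons between senescent conditions and in the interaction. Between young and senescent cells that both carried TRF2, length of exposure to it likewise cannot be told apart from senescence. Every library came from cells with a lentivirus and a transfected siRNA, so levels without either were not measured. The study speaks of biological replicates, but the labels do not say whether the libraries of a condition came from separate cultures, so the p-values measure only the spread between these libraries.

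Totals ran from 26725885 to 43116046 counts per library. LMNB1 had 1575 to 2041 counts in the young libraries with control siRNA, 72 to 125 with siLMNB1 and 84 to 152 in the senescent libraries. TERF2 had 4717 to 10339 counts with the TRF2 vector and 588 to 1144 without it. All 12 fibroblast markers passed the filter. In senescence with the empty vector 7 of them were lower, POSTN (-3.998 on the log2 scale) the most, and 2 higher, by the test used below. These stand beside 31.9% lower and 32.7% higher among all tested genes. The leukocyte marker PTPRC had at most 4 counts in any library. The sum of 12 immune markers was 0.655 to 1.92 CPM (counts per 1000000 counts, with library sizes scaled by TMM) in the young libraries and 2.71 to 4.63 in the senescent ones. Of these, CD14 (3.645 on the log2 scale) and ITGAX (2.389) were higher in senescence with the empty vector, at 39 to 61 and 16 to 47 counts there. Sums of 5 endothelial markers were 30.5 to 52.1 CPM in young and 23.9 to 70.9 in senescent libraries. For 6 epithelial markers they were 32.5 to 40.65 and 43.4 to 67.1 CPM. The part of these markers in the results was not tested. All 8 proliferation genes checked, MKI67 among them, were lower in senescence and with siLMNB1, and how far the changes below follow the share of dividing cells was not tested. Fewer expressing cells and less RNA per cell cannot be told apart in such bulk samples. The senescent libraries are labelled as a reanalysis of an earlier deposit, so senescence and deposit cannot be told apart. Of the tested genes, 52.0% share exonic bases with another gene, but among 63 genes with at least 50 counts in every young and at most 10 in every senescent library 57 did (90.5%). In the opposite direction, with at least 50 counts in every senescent and at most 10 in every young library, there were 17 genes, of which 8 did (47.1%). No gene of the list was in either group. Each library's log2 levels were also compared, gene by gene, with their average in young empty-vector cells, and the difference was related to GC content. This difference rose by 0.460 to 0.823 log2 units per 10 percentage points of exonic GC in the senescent libraries. The steepest rise was in replicate 3 of senescent cells with the empty vector. In the young libraries the slopes were -0.0063 to 0.134. Those of young empty-vector cells lie near 0 because of this reference, so the GC dependence of those cells themselves is not shown. A second fit of each change corrected each library for its dependence on GC content and on gene length, and is called the fit with offsets.

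As background, the pathway has 2 main cytosolic branches. The enzyme cGAS, encoded by CGAS, binds double-stranded DNA and makes the messenger cGAMP, which activates the adaptor STING1. The helicase MDA5, encoded by IFIH1, binds long double-stranded RNA and acts through the adaptor MAVS on mitochondria. Both adaptors lead to the kinase TBK1, which phosphorylates IRF3, a transcription factor of the interferon genes. TLR3 senses double-stranded RNA in endosomes, IFI16 binds DNA in the nucleus and the cytosol, TREX1 degrades cytosolic DNA, and SAMHD1 hydrolyses deoxynucleotides. DNA that escapes from the nucleus of senescent fibroblasts is known as a trigger of the cGAS branch.

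Several of these genes are themselves induced by interferon through the interferon-stimulated response element (ISRE). Promoter sequences were found for 7 members, in 8 windows, from RefSeq on GRCh38.p14. The ISRE core was searched as 2 copies of GAAA with any 2 bases between them, on both strands, from 250 bases before to 10 after the gene start, and 3.2% of 35116 promoters held it. IFIH1 had 3 matches, of which the first 2 overlap, and TLR3 had 1 that lies across its start, while IFI16, SAMHD1, TBK1, MAVS and TREX1 had none. The windows of both genes with a match, and that of IFI16, a sensor gene without one, are given with the matches in capitals, from 200 bases before the start to 10 after.
IFIH1 (chr2:162318675-162318884, minus strand): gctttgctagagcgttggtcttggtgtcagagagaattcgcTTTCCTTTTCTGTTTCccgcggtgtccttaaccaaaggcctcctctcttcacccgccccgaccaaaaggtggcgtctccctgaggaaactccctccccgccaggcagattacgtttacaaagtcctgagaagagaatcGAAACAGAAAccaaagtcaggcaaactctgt
TLR3 (chr4:186068956-186069165, plus strand): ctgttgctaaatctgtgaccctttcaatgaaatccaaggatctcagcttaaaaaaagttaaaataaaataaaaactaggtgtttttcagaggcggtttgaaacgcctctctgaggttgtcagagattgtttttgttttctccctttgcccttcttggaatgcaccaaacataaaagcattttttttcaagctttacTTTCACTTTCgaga
IFI16 (chr1:159009707-159009916, plus strand): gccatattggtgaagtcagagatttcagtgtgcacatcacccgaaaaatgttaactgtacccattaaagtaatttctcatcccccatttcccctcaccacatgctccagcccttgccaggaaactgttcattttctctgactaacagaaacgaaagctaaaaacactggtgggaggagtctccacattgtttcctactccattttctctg
The other interferon motif, searched as TTC and GAA with any 3 bases between them, was held by 6.83% of promoters and had 2 matches in TLR3 and none in the other 6 members with a window. A match describes letters and is not evidence that a factor binds there.

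The DNA sensors CGAS and IFI16, the RNA sensors IFIH1 and TLR3, and SAMHD1 were lower in senescent than in young cells, whereas the adaptor MAVS and the transcription factor IRF3 were higher, and the kinase TBK1 and the adaptor STING1 did not pass the test. Between cells with the empty vector these changes passed the quasi-likelihood test of edgeR (adjusted p below 0.05, after Benjamini and Hochberg, over all genes tested). These are 5 of 9 members lower and 2 of 9 higher, beside 31.9% and 32.7% of all tested genes. CGAS and IFIH1 also passed the study's fold threshold of 1 on the log2 scale, as did 28.5% of all tested genes. The median log2 fold change was -0.78 over the 9 members and 0.02 over all tested genes. With the offsets, 4 members were lower (CGAS, IFIH1, SAMHD1 and STING1), 2 were higher (MAVS and TBK1), and the members' median was -0.39.

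**Figure D1:**
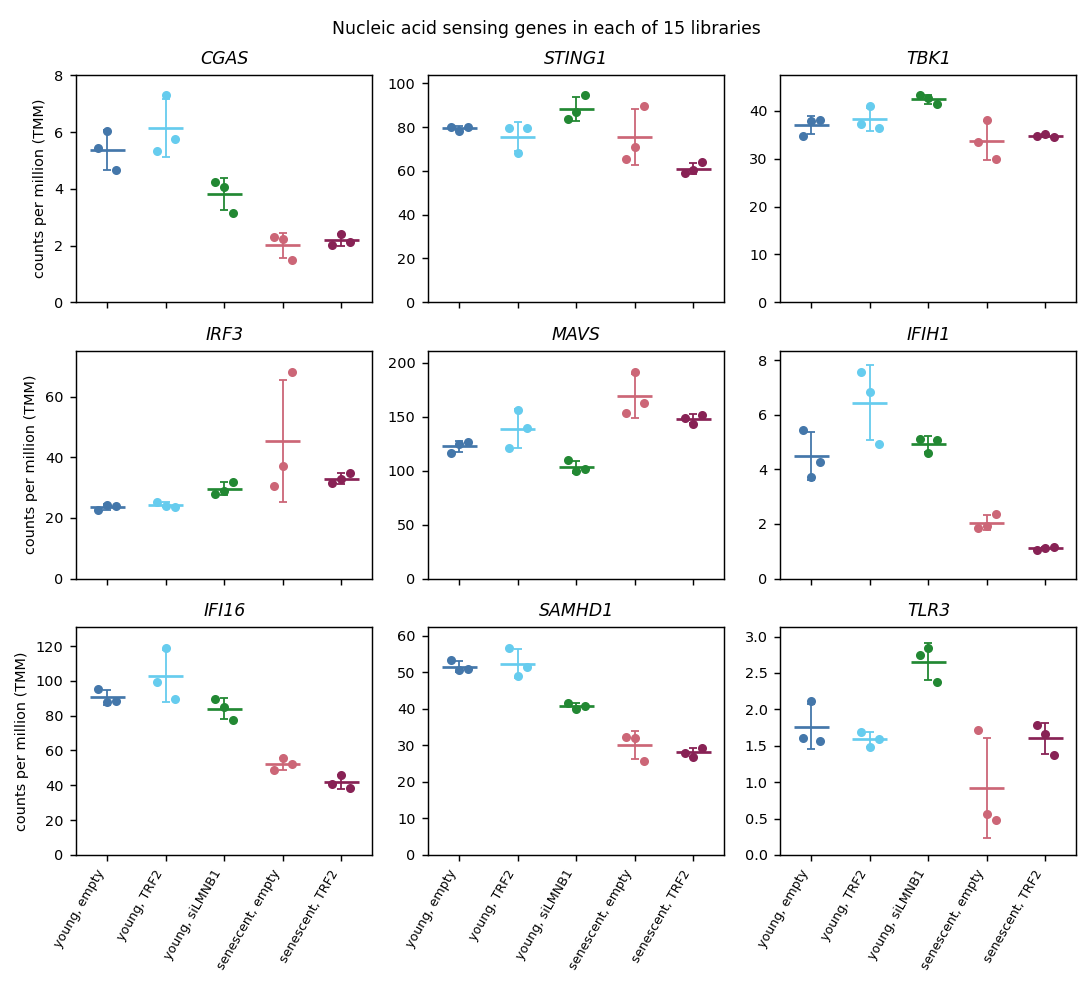
Level of each of the 9 members that passed the filter in 15 libraries, in CPM (y axis, from 0, one panel per gene), by condition (x axis). Points are libraries, horizontal lines means and vertical bars SDs of 3 libraries. CGAS, IFIH1, IFI16 and SAMHD1 sit lower in all 6 senescent libraries than in all 9 young ones, and 1 senescent library with the empty vector stands apart in IRF3 (68.3) and another in TLR3 (1.71).

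The senescence comparison was repeated between cells that both carried TRF2, the senescent ones for longer. Here 5 members were lower (CGAS, IFIH1, IFI16, SAMHD1 and STING1), beside 30.1% of all tested genes, and none was higher, beside 28.2%. IRF3 was the only member higher at an unadjusted p below 0.05, by edgeR and by DESeq2, and neither tool called it. CGAS, IFIH1 and IFI16 passed the fold threshold, as did 24.0% of all tested genes. The median was -0.31 over the members and -0.02 over all tested genes, and the same 5 members were lower with the offsets.

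CGAS (ENSG00000164430; GRCh38 chromosome 6, 73413515 to 73452297, minus strand, in the GENCODE 44 annotation) had 5.44, 6.05 and 4.65 CPM in young cells with the empty vector and 2.31, 2.22 and 1.49 in senescent cells with it. The highest senescent library was below the lowest young one. With TRF2 the values were 5.35, 7.30 and 5.76 in young and 2.01, 2.42 and 2.14 in senescent cells, again without overlap. CGAS thus had the lowest log2 fold change of the list with the empty vector, -1.43 ± 0.20 (SE; adjusted p = 1e-05), which is a ratio of 0.371. With TRF2 in both it was -1.49 ± 0.19 (adjusted p = 5.5e-06). Offsets brought the former to -0.95 (adjusted p = 0.00022), and over 13 alternatives it lay between -1.55 and -0.95. These values rest on 46 to 76 counts per senescent library, and 4.31% of the exonic bases of CGAS overlap a gene on the opposite strand.

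IFIH1 (ENSG00000115267; chromosome 2, 162267074 to 162318684, minus strand), the gene of the RNA sensor MDA5, had 5.44, 3.73 and 4.28 CPM in young and 1.86, 1.93 and 2.37 CPM in senescent cells with the empty vector. In cells with TRF2 it had 7.58, 6.83 and 4.92 CPM when young and 1.05, 1.11 and 1.17 when senescent. Senescent libraries were below young ones with either vector, and those with TRF2 were the lowest of all. The change with senescence was -1.12 ± 0.19 (adjusted p = 9.6e-05) with the empty vector and -2.53 ± 0.20 (adjusted p = 2e-08) with TRF2. The offsets gave -0.52 (adjusted p = 0.044) and -2.11 (adjusted p = 3.6e-07), and offsets with a replicate block left the former uncalled (adjusted p = 0.051). Counts were 33 to 73 per senescent library and 115 to 279 per young library, and none of its exonic bases is shared with another gene.

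TLR3 (ENSG00000164342; chromosome 4, 186068911 to 186088073, plus strand), the endosomal sensor, was the least abundant measured member. It had 1.60, 2.11 and 1.56 CPM in young cells and 1.71, 0.556 and 0.486 CPM in senescent cells with the empty vector. The first senescent library lay within the young range and the other 2 below it. TLR3 changed by -0.96 ± 0.35 on the log2 scale (adjusted p = 0.023), but -0.44 with the offsets (adjusted p = 0.24), -0.71 without senescent replicate 2 (adjusted p = 0.10), -0.66 without senescent replicate 3 (adjusted p = 0.088) and -0.80 without young replicate 2 (adjusted p = 0.091). Without senescent replicate 1 it was the lowest of the alternatives, -1.77. With TRF2 the 2 states overlapped, at 1.68, 1.48 and 1.60 CPM in young and 1.78, 1.66 and 1.37 CPM in senescent cells, and the log2 fold change was 0.01 (95% interval -0.67 to 0.69). The library with the fewest reads of this gene had 15 counts.

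IFI16 (ENSG00000163565; chromosome 1, 158999968 to 159055155, plus strand), a DNA-binding protein that is also induced by interferon, had 95.4, 87.9 and 88.5 CPM in young cells and 49.0, 55.6 and 52.1 CPM in senescent cells with the empty vector. With TRF2 it had 99.4, 119.0 and 89.6 CPM in young and 40.9, 46.1 and 38.2 CPM in senescent cells. All 6 senescent libraries were below all young ones. Its log2 fold change was -0.79 ± 0.11 (adjusted p = 8.1e-06) with the empty vector and -1.30 ± 0.11 (adjusted p = 3.6e-08) with TRF2. With the offsets the former was no longer called (-0.20, adjusted p = 0.13), whereas the latter was (-0.87, adjusted p = 3.9e-06). Of its exonic bases, 8.03% overlap a gene on the opposite strand.

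STING1 (ENSG00000184584; chromosome 5, 139475533 to 139482935, minus strand), the receptor of cGAMP, had 80.2, 78.4 and 80.0 CPM in young and 65.6, 70.9 and 89.8 CPM in senescent cells with the empty vector. One senescent library, replicate 3, was above the young range and the other 2 below it. The log2 fold change was -0.08 ± 0.11 (adjusted p = 0.55; 95% interval -0.30 to 0.15). It was -0.24 without that library (adjusted p = 0.014) and -0.42 with the offsets (adjusted p = 9.3e-05). With TRF2, STING1 had 79.4, 68.1 and 79.5 CPM in young and 58.8, 60.3 and 63.9 CPM in senescent cells, which do not overlap, and fell by 0.31 on the log2 scale (SE 0.11, adjusted p = 0.02). That call was lost without any of 4 libraries, TRF2 replicates 1 and 2 of senescent and 1 and 3 of young cells, at adjusted p between 0.052 and 0.069.

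MAVS (ENSG00000088888; chromosome 20, 3846799 to 3876123, plus strand), the adaptor of the RNA sensors, had 116.6, 124.3 and 126.9 CPM in young and 153.6, 191.9 and 162.3 CPM in senescent cells with the empty vector. The 3 senescent libraries were above the young ones. The log2 fold change was 0.47 ± 0.10 (adjusted p = 0.00074) and 0.30 with the offsets (adjusted p = 0.0062). With TRF2, the 120.9, 156.4 and 139.8 CPM of young cells spanned the 149.2, 143.7 and 151.6 CPM of senescent cells, and the log2 fold change was 0.09 (95% interval -0.12 to 0.30).

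TBK1 (ENSG00000183735; chromosome 12, 64452090 to 64502114, plus strand), the kinase shared by both branches, kept to a narrow range. It had 34.9, 38.0 and 38.2 CPM in young and 33.5, 38.0 and 29.9 CPM in senescent cells with the empty vector, and 37.3, 41.0 and 36.5 against 34.7, 35.3 and 34.6 CPM with TRF2. The empty vector libraries overlapped, and those with TRF2 did not. The log2 fold change was -0.13 ± 0.09 in both comparisons (adjusted p = 0.22 in each). TBK1 had the lowest GC content of the list, 38.0%, and with the offsets it was called higher with the empty vector, 0.52 (adjusted p = 0.0005). Whether it was called, and its sign, thus depend on that scaling. It shares 3.83% of its exonic bases with another gene.

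IRF3 (ENSG00000126456; chromosome 19, 49659569 to 49665875, minus strand), the transcription factor that TBK1 phosphorylates, had 22.6, 24.2 and 24.1 CPM in young and 30.5, 37.1 and 68.3 CPM in senescent cells with the empty vector. All 3 senescent libraries were higher, and replicate 3 was the highest of them. IRF3 rose by 0.94 ± 0.20 on the log2 scale (adjusted p = 0.00064), but 0.50 without that library (adjusted p = 0.00011) and 0.28 with the offsets (adjusted p = 0.053). With TRF2, IRF3 had 25.4, 24.1 and 23.8 CPM in young and 31.4, 32.7 and 34.8 CPM in senescent cells, which do not overlap. The log2 fold change was 0.43 ± 0.20 (adjusted p = 0.071) and 0.01 with the offsets. Its GC content is 59.5%, the highest of the 9 members tested, and 19.4% of its exonic bases overlap BCL2L12 or another gene on the opposite strand.

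TREX1 (ENSG00000213689; chromosome 3, 48465811 to 48467645, plus strand), the main DNA exonuclease of the cytosol, had 0 counts in all 15 libraries. In the GENCODE 44 annotation 100.0% of its exonic bases are shared with ATRIP on the same strand, and the counter used leaves out reads that fall on more than 1 gene. The 0 is therefore not a measurement of the transcript. ATRIP itself had 0 to 1 counts in the young and 217 to 375 in the senescent libraries, and deposit and senescence cannot be told apart for it.

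SAMHD1 (ENSG00000101347; chromosome 20, 36890229 to 36951893, minus strand), the deoxynucleotide hydrolase, had 53.3, 50.6 and 50.8 CPM in young and 32.4, 32.1 and 25.8 CPM in senescent cells with the empty vector. With TRF2 it had 56.7, 49.1 and 51.5 CPM in young and 27.9, 26.9 and 29.4 CPM in senescent cells. Senescent libraries were below young ones throughout. SAMHD1 fell by 0.78 on the log2 scale (SE 0.09; adjusted p = 2.5e-06) with the empty vector and by 0.90 (SE 0.09; adjusted p = 5.2e-07) with TRF2. With the offsets both were smaller and still called, at -0.39 (adjusted p = 0.00055) and -0.67 (adjusted p = 2e-06). Of the exonic bases of SAMHD1, 9.86% overlap a gene on the opposite strand.

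**Figure D2:**
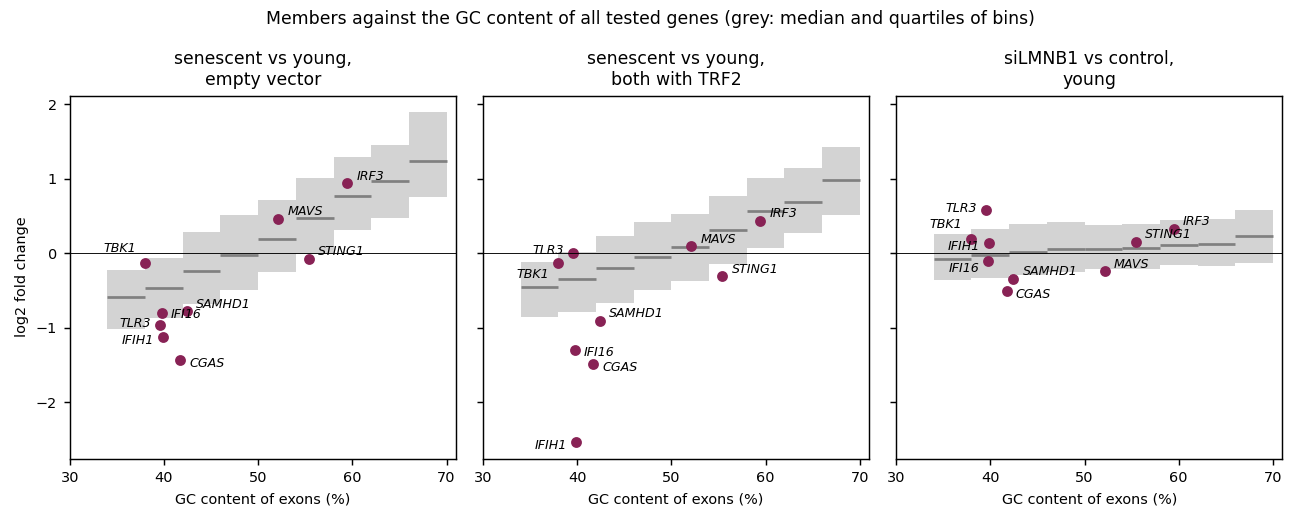
Log2 fold change (y axis) against GC content of exons in percent (x axis) for the 9 members (points) in 3 comparisons; grey steps are the median and the quartiles of all tested genes in bins of 4 percentage points. In senescence with the empty vector the median of all genes rose from -0.59 in the bin from 34 to 38% to 0.97 from 62 to 66%. CGAS, IFIH1, TLR3, SAMHD1 and STING1 were below the lower quartile of their bins, TLR3 and STING1 by less than their SE.

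Set against genes of like GC content, the members divided differently. With the empty vector, genes between 38 and 42% GC had a median log2 fold change of -0.46 and a lower quartile of -0.86. CGAS (41.7% GC), IFIH1 (39.9%) and TLR3 (39.5%) lay below that quartile, and IFI16 (39.8%) and TBK1 (38.0%) above it. Genes from 58 to 62% GC had a median of 0.77, and IRF3 lay within their quartiles of 0.31 and 1.30. STING1 (55.4%) and SAMHD1 (42.5%) lay below the lower quartiles of their bins, -0.0041 and -0.68. TLR3 and STING1 were below these quartiles by less than their SE (0.35 and 0.11), and SAMHD1 by about its SE (0.09).

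The levels themselves can be compared between genes only per length of exon. In young cells with the empty vector, IFI16 was the most abundant member at 17.1 ± 0.79 CPM per kilobase (SD, n = 3), followed by STING1 at 16.6 ± 0.20 and MAVS at 10.4 ± 0.46. IFI16 and STING1 differed by less than the SD of IFI16. IRF3 (6.23 ± 0.23), SAMHD1 (4.76 ± 0.14) and TBK1 (2.52 ± 0.13) came next, and the low end held CGAS (1.29 ± 0.17), IFIH1 (0.858 ± 0.17) and TLR3 (0.235 ± 0.041). In senescent cells with the empty vector STING1 (15.7 ± 2.7) and MAVS (14.4 ± 1.7) were the highest and differed by less than either SD, and IFI16 came to 9.86 ± 0.63. CGAS came to 0.481 ± 0.11 and IFIH1 to 0.392 ± 0.053, which are within 1 SD of CGAS of each other. STING1 and MAVS thus stood above CGAS and IFIH1 on this scale in both states.

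**Figure D3:**
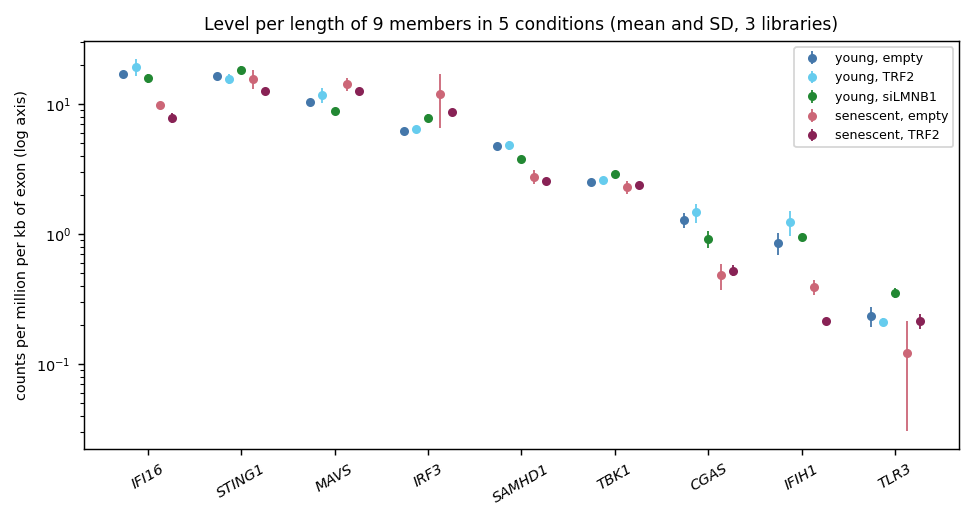
Level per length in CPM per kilobase of exon (y axis, log scale) of the 9 members that passed the filter (x axis, ordered by young cells with the empty vector). Points are means and bars SDs of 3 libraries in each of 5 conditions. IFI16, STING1 and MAVS were above 7.8 in every condition, whereas CGAS, IFIH1 and TLR3 were below 1.5.

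With Lamin B1 lowered in young cells, fewer of these genes and fewer of all tested genes were called than in senescence, in the fit of all 15 libraries. With siLMNB1, CGAS had 4.23, 4.05 and 3.16 CPM and SAMHD1 had 41.7, 40.0 and 40.7 CPM, each below all 3 young control libraries. SAMHD1 fell by 0.34 on the log2 scale (SE 0.09, adjusted p = 0.011) and CGAS by 0.51 (SE 0.18, adjusted p = 0.045). These were the 2 members called lower by edgeR, beside 16.1% of all tested genes, and DESeq2 called MAVS as well (-0.26, adjusted p = 0.042). None of the 9 was called higher by edgeR or DESeq2 in the fit of all 15 libraries, beside 16.4% of all tested genes. TBK1 alone had an unadjusted edgeR p below 0.05 in that direction there, and no member did by DESeq2. When only the 6 libraries compared were fitted, edgeR also called IRF3 (0.33, adjusted p = 0.00055), TBK1 (0.19, 0.0097), STING1 (0.15, 0.02) and TLR3 (0.58, 0.031) higher. MAVS was called lower in that fit (-0.24, adjusted p = 0.00023). None passed the study's fold threshold of 0.58 for this comparison together with the test, as 18.3% of all tested genes did. The CGAS call was lost without any of 5 of the 6 libraries compared, at log2 fold changes from -0.59 to -0.38 and adjusted p from 0.056 to 0.19, while SAMHD1 stayed called in each.

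The sensors of RNA and both adaptors had smaller or less certain differences with siLMNB1. TLR3 had 2.75, 2.85 and 2.37 CPM, above all 3 control libraries, and a log2 fold change of 0.58 ± 0.31 (adjusted p = 0.17; 95% interval -0.08 to 1.24). STING1 had 83.5, 86.7 and 94.6 CPM, IRF3 28.0, 28.8 and 32.0 CPM and TBK1 43.3, 42.7 and 41.4 CPM, all above their control libraries. Their log2 fold changes were 0.15 ± 0.11 (adjusted p = 0.30), 0.33 ± 0.20 (adjusted p = 0.23) and 0.20 ± 0.09 (adjusted p = 0.11). MAVS had 110.0, 99.6 and 101.3 CPM, below its controls, with -0.24 ± 0.10 (adjusted p = 0.076). IFIH1 had 5.11, 4.61 and 5.08 CPM and IFI16 89.6, 85.0 and 77.5 CPM, which overlapped the controls, with log2 fold changes of 0.14 (95% interval -0.24 to 0.52) and -0.11 (95% interval -0.33 to 0.12). With the offsets TBK1 (0.30, adjusted p = 0.034) and MAVS (-0.27, adjusted p = 0.019) passed the test too. The median was 0.14 over the members and 0.04 over all tested genes.

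With TRF2 in young cells none of the 9 members was called by edgeR or by DESeq2, beside 0.152% of all tested genes higher and 0.0253% lower. IFIH1 was the only member with an unadjusted p below 0.05, by either tool. Its log2 fold change was 0.53 ± 0.18 (95% interval 0.15 to 0.90, edgeR unadjusted p = 0.0086, adjusted p = 0.31), and its young TRF2 libraries overlapped those with the empty vector. The other 8 log2 fold changes lay between -0.15 for TLR3 and 0.19 for CGAS, whose 95% intervals were -0.83 to 0.53 and -0.19 to 0.57.

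In senescent cells IFIH1 was lower with TRF2, from 1.86, 1.93 and 2.37 to 1.05, 1.11 and 1.17 CPM, without overlap. The log2 fold change was -0.88 ± 0.22 (adjusted p = 0.017) and -1.03 with the offsets (adjusted p = 0.0083). It was the only member called lower by edgeR, beside 6.41% of all tested genes, while DESeq2 also called IFI16 (adjusted p = 0.03) and STING1 (adjusted p = 0.045), and none was called higher, beside 4.87%; TLR3 alone was higher at an unadjusted p below 0.05, by edgeR and by DESeq2. The IFIH1 call was lost without senescent TRF2 replicate 1 (-0.84, adjusted p = 0.068), TRF2 replicate 2 (-0.88, adjusted p = 0.058) or empty vector replicate 3 (-0.76, adjusted p = 0.055), and when only the 6 libraries compared were fitted (-0.87, adjusted p = 0.11). IFI16 was lower in every TRF2 library as well, with -0.32 ± 0.11 (adjusted p = 0.064), and was called with the offsets (-0.47, adjusted p = 0.0093). STING1 was also lower in every TRF2 library, with -0.31 ± 0.11 (adjusted p = 0.077). TLR3 was 0.82 ± 0.35 higher (adjusted p = 0.14), and 1.62 higher (adjusted p = 0.00045) without empty vector replicate 1, whose 1.71 CPM lay among the TRF2 values. IRF3 was -0.46 ± 0.20 (adjusted p = 0.14), which was -0.03 without empty vector replicate 3, and was called without replicate 1 (-0.67, adjusted p = 0.0068) and without the filter on low counts (-0.45, adjusted p = 0.0068). The medians were -0.19 over the members and -0.02 over all tested genes.

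Whether the change with senescence differed between cells with and without TRF2 was tested as an interaction. IFIH1 was the only member called, with a difference of -1.41 ± 0.28 (adjusted p = 0.03), beside 1.13% of all tested genes called in either direction. IFI16 had a difference of -0.50 ± 0.15 (adjusted p = 0.12) and passed the test with the offsets (-0.67, adjusted p = 0.034). The other 7 members had adjusted p between 0.22 and 1.0, with differences from -0.51 for IRF3 to 0.97 for TLR3. Without senescent empty vector replicate 1, TLR3 (1.78, adjusted p = 0.003), IRF3 (-0.72, adjusted p = 0.046) and IFI16 (-0.54, adjusted p = 0.03) were called as well. The call for IFIH1 was lost without any of 8 libraries, at differences from -1.45 to -1.26 and adjusted p between 0.052 and 0.095. Of 26 tested interferon-stimulated genes, described below, 6 were called lower in the interaction and 0 higher, with a median difference of -1.225. With TRF2 in young cells 0 of the 26 were called, and their median log2 fold change was 0.52.

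**Figure D4:**
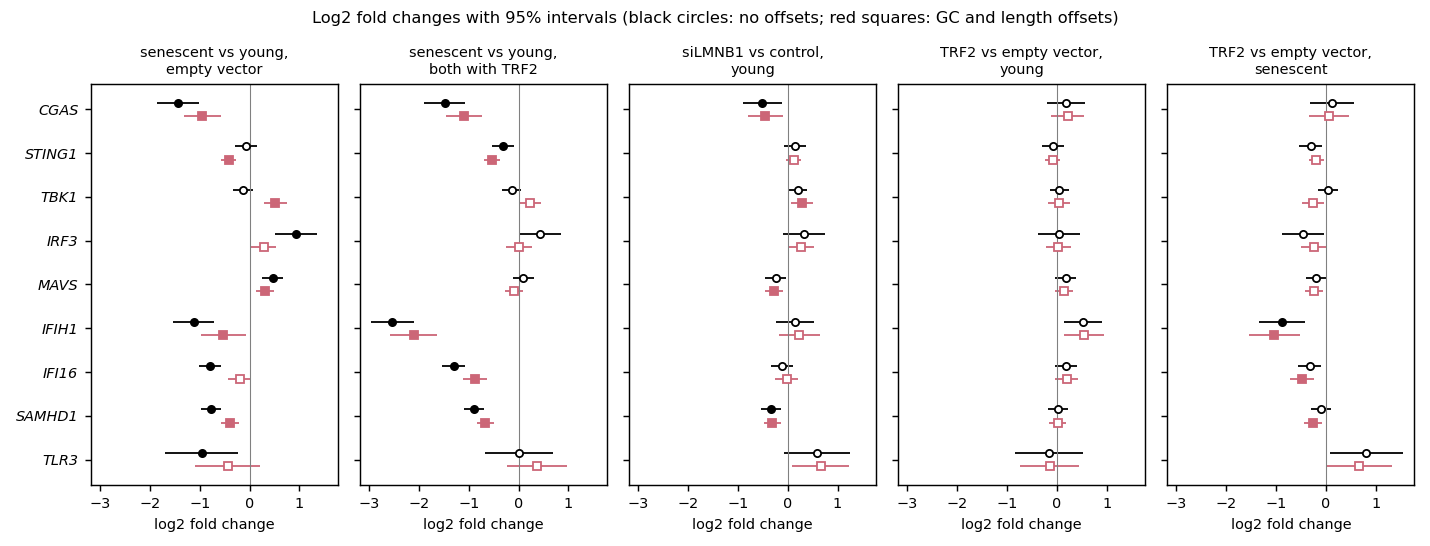
Log2 fold change (x axis) of the 9 members (y axis) in 5 comparisons, with 95% intervals. Black circles are fits without offsets and red squares fits with GC and length offsets; filled symbols have an adjusted p below 0.05. In senescence with the empty vector the offsets bring IFI16 from -0.79 to -0.20 and TBK1 from -0.13 to 0.52, whereas the siLMNB1 values move by at most 0.10.

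The order of the conditions differed among the members. CGAS was ordered from young TRF2 (6.14 CPM) through young empty vector (5.38), siLMNB1 (3.81) and senescent TRF2 (2.19) to senescent empty vector (2.01), and the libraries of TRF2 and the empty vector overlapped both in young and in senescent cells. SAMHD1 had young TRF2 (52.4), young empty vector (51.6), siLMNB1 (40.8), senescent empty vector (30.1) and senescent TRF2 (28.0), with siLMNB1 apart from its neighbours on both sides. IFIH1 and IFI16 had young TRF2 at the top, at 6.44 and 102.7 CPM, and senescent TRF2 at the bottom, at 1.11 and 41.7 CPM, and the 3 young conditions overlapped with their neighbours in each. STING1 (88.3), TBK1 (42.4) and TLR3 (2.66) were highest with siLMNB1, each apart from the next condition. MAVS and IRF3 were highest in senescent cells with the empty vector, at 169.3 and 45.3 CPM, and MAVS was lowest with siLMNB1, at 103.6 CPM.

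By the root mean square difference of 5 condition means of log2 CPM, each centred on its gene's mean, the nearest of 15798 genes to CGAS were PSIP1 (0.0595), DOCK11 (0.0677) and MIR4453HG (0.0768). Those nearest to IFI16 were RPS20P22 (0.0263), LRIG1 (0.0365) and PEMT (0.0428), and to STING1 SMIM19 (0.0231), ENSG00000277369 (0.0254) and RPS24P8 (0.0275). RPS20P22 and RPS24P8 are ribosomal protein pseudogenes, whose reads may belong to their parent genes. Nearest to TLR3 were PSMB9 (0.0543), an immunoproteasome subunit, DYNC2H1 (0.086) and GATA2-AS1 (0.105). CGAS itself ranged over 1.58 log2 units and STING1 over 0.531, and the 5 means of each gene share their libraries.

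The interferon-stimulated genes, which lie at the end of this pathway, were mostly lower in senescence. Of 26 tested of 28 listed, 16 were lower and 3 higher with the empty vector, beside 31.9% lower and 32.7% higher among all tested genes, with a median log2 fold change of -0.78. With TRF2 22 were lower and 1 higher, beside 30.1% and 28.2%, with a median of -1.86. With the offsets 13 were lower and 1 higher with the empty vector. The 3 with the lowest values were XAF1 (-4.43 ± 0.82), IFI44L (-2.77 ± 0.57) and OAS3 (-2.38 ± 0.18), at adjusted p of 0.00027, 0.0005 and 1.1e-08. XAF1 had only 8 to 13 counts in young cells with the empty vector, and 38.3% of its exonic bases are shared with another gene. IFI44L had 23 to 42 counts in young and only 2 to 6 in senescent cells with the empty vector. The 3 higher were SP110 (4.05 ± 0.21), IFI6 (1.16 ± 0.29) and ISG15 (0.99 ± 0.22), and with the offsets only SP110 of these was called. IFI6 had 27.9 to 38.9 CPM in young and 33.5 to 107.4 in senescent cells with the empty vector, which overlap. ISG15 had 32.7 to 42.6 CPM in these young cells and 47.9 to 112.7 in these senescent cells. SP110 had 33 to 51 counts in young and 619 to 809 in senescent cells with the empty vector, and shares 19.4% of its exonic bases.

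With siLMNB1, 7 of 26 interferon-stimulated genes were lower and 2 higher, beside 16.1% and 16.4% of all tested genes. RSAD2 (-2.75 ± 0.89, adjusted p = 0.026) and IFIT2 (-2.45 ± 0.18, adjusted p = 7.6e-08), an RNA-binding antiviral protein, were the lowest. IFI44L (1.39 ± 0.39, adjusted p = 0.012) and IFI35 (0.57 ± 0.14, adjusted p = 0.0048) were the 2 higher. In senescent cells with TRF2 9 of the 26 were lower and none was called higher, beside 6.41% and 4.87% of all tested genes, with a median of -0.73; with the offsets 9 were lower and 1 higher. IFI27 (-2.06 ± 0.58) and IFI6 (-1.48 ± 0.29) were the lowest of these, beside the -0.88 of IFIH1, which is itself induced by interferon. IFI27 had only 5 to 8 counts in senescent cells with TRF2 and 10 to 43 with the empty vector. IFI6 spread from 33.5 to 107.4 CPM in senescent cells with the empty vector. In the same comparison 7 of 8 proliferation genes were lower, among them CDK1 (-1.31) and MKI67 (-1.18), and 8 of 12 fibroblast markers were higher; their part in the result was not tested.

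Of the other sensors, 13 of 20 were tested, and 7 were lower and 1 higher in senescence with the empty vector, beside 31.9% and 32.7% of all tested genes. The chromatin protein HMGB1 (-1.83 ± 0.07), OAS3 and the DNA repair kinase PRKDC (-1.24 ± 0.22) had the lowest values. DDX41 (0.64 ± 0.13, adjusted p = 0.00037) was the 1 higher, and was 0.07 with the offsets. With TRF2 10 were lower and 1 higher, beside 30.1% and 28.2%, and with siLMNB1 5 were lower and 1 higher, beside 16.1% and 16.4%. OASL (-2.38 ± 0.53) and OAS3 (-0.76 ± 0.16) were the lowest with siLMNB1, and DHX58, a regulator of the RNA sensors, was the 1 higher (0.97 ± 0.29, adjusted p = 0.017). The RNA sensor RIGI did not pass the test in senescence with the empty vector (-0.12 ± 0.10, adjusted p = 0.33), but was called higher with the offsets (0.36, adjusted p = 0.003). Between cells with TRF2 it was called lower (-0.38, adjusted p = 0.0049), but not with the offsets (-0.08, adjusted p = 0.46). Whether RIGI was called thus depends on that scaling. It shares 43.2% of its exonic bases.

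Nucleases and other limiters went in both directions. Of 13 tested of 15, 7 were higher and 4 lower in senescence with the empty vector, beside 32.7% and 31.9% of all tested genes, and with the offsets 5 were higher and 5 lower. The lysosomal ribonuclease RNASET2 (2.13 ± 0.18), PLD3 (1.77 ± 0.14) and DNASE1 (1.58 ± 0.27) had the highest values. ENPP1, which hydrolyses cGAMP outside the cell, had 52.7 ± 1.8 CPM in young and 3.94 ± 0.84 CPM in senescent cells (SD, n = 3), a log2 fold change of -3.75 ± 0.15 (adjusted p = 4.4e-12). RNASEH2A, a subunit of ribonuclease H2, had the lowest value (-7.64 ± 0.24), but it is one of the genes with over 50 counts in each young (664 to 821 with the empty vector) and at most 10 in each senescent library (1 to 6), and shares 53.3% of its exonic bases. With siLMNB1 4 were higher and 3 lower, beside 16.4% and 16.1%. DNASE2 (1.07 ± 0.10) and DNASE1L1 (0.65 ± 0.16) were the highest, TREX2 (-2.71 ± 1.01, adjusted p = 0.049) and RNASEH2A (-1.04 ± 0.14) had the lowest values, and ENPP1 was lower as well (-0.86 ± 0.13).

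Of 22 adaptors and kinases, all tested, 10 were higher and 5 lower in senescence with the empty vector, beside 32.7% and 31.9% of all tested genes, with 12 and 5 between cells with TRF2, beside 28.2% and 30.1%. ZDHHC1 (1.82 ± 0.14), TBKBP1 (1.40 ± 0.13), which binds TBK1, and NLRC3 (1.39 ± 0.36) had the highest values. AZI2 (-1.28 ± 0.10; 61.4% of exonic bases shared), TANK (-0.64 ± 0.09), both partners of TBK1, and CHUK (-0.63 ± 0.11) had the lowest, and with the offsets TANK (0.06) and CHUK (-0.01) were not called. With siLMNB1 TRAF3 (-1.33 ± 0.10, adjusted p = 7.5e-08), a ubiquitin ligase downstream of MAVS, and IKBKE (-0.70 ± 0.11), a kinase related to TBK1, were the lowest of 5, and NLRC3 (1.08 ± 0.36) and ZDHHC1 (0.42 ± 0.14) the highest of 4, shares near the 16.1% and 16.4% of all tested genes.

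Of 11 transcription factors tested, 4 were higher and 3 lower in senescence with the empty vector, near the 32.7% and 31.9% of all tested genes, but 1 and 4 with the offsets. IRF9 (1.66 ± 0.57), IRF7 (0.74 ± 0.24) and RELA (0.50 ± 0.08) had the highest and NFKB1 (-0.71 ± 0.09) and IRF2 (-0.62 ± 0.10) the lowest values. IRF9 had only 6 to 8 counts in young and 4 to 37 in senescent cells with the empty vector, and shares 27.2% of its exonic bases. Between cells with TRF2 its log2 fold change was -0.24 (adjusted p = 0.71). With the offsets IRF7 had -0.41 (adjusted p = 0.069) and RELA -0.04 (adjusted p = 0.7), and neither was called. With siLMNB1 ATF3 (0.72 ± 0.11), STAT2 (0.48 ± 0.12) and NFKB1 (0.41 ± 0.09) were the 3 higher and none was called lower, beside 16.4% and 16.1%.

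**Figure D5:**
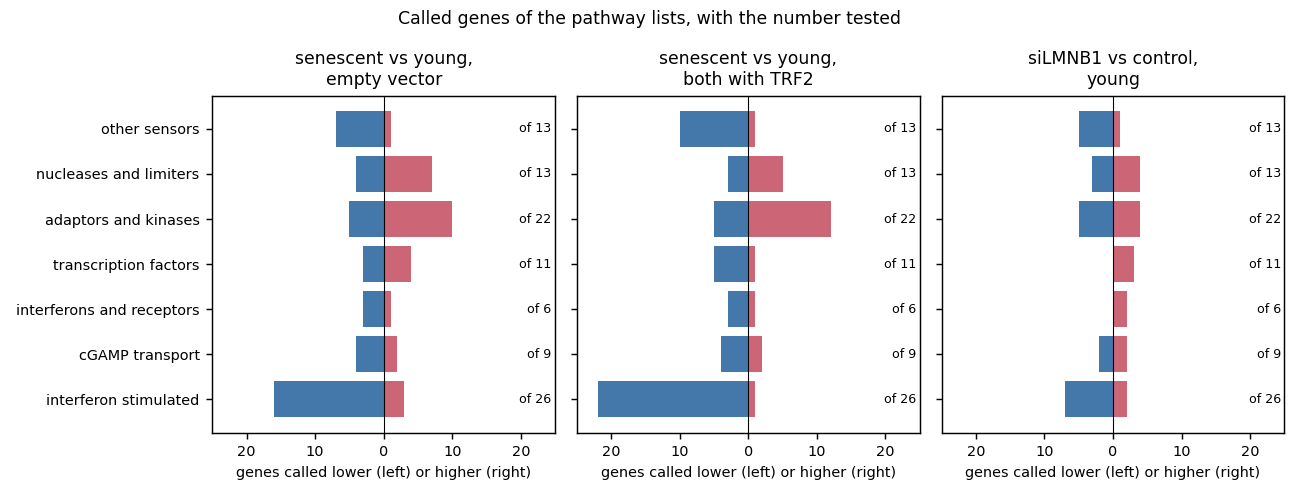
Number of genes called lower (bars to the left) and higher (bars to the right) in 7 pathway lists (y axis) for 3 comparisons, with the number tested at the right. In senescence 16 of 26 interferon-stimulated genes were lower with the empty vector and 22 with TRF2, against 7 with siLMNB1.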

How the data were processed

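MRC-5 RNA-seq libraries, 3 in each of 5 conditions, were grouped by their labels. The authors deposited 1 table of raw counts per gene, made per their methods with Trimmomatic and STAR on GRCh38 (gene counts by STAR, which leaves out reads on more than 1 gene). Which annotation release and strand setting were used is not given in the sources used here. Genes were kept by filterByExpr, scaled by TMM and tested with edgeR 4.0.16 (quasi-likelihood, 1 model with 5 condition means, Benjamini-Hochberg over 15799 genes, called at adjusted p below 0.05) in R 4.3.3. Lengths, GC content and overlaps came from GENCODE 44, which held 56948 of the table's gene identifiers. The fits were tested on simulated data. Alternatives were DESeq2 1.42.0 and its size factors, no filter, only the libraries compared, a replicate block, GC and length offsets (loess span 0.3), the study's fold threshold and each library left out; genes without exonic overlap were added after seeing the data. All 10 members are named; of each pathway list up to 3 called genes a direction with the largest change in senescence and 2 with siLMNB1, or any gene of a count of 5 or fewer. Some genes that this rule names are not reported here. The 4 genes with a nearest-pattern search were CGAS, STING1, IFI16 and TLR3. Members and lists were chosen with earlier results of these data known. Comparisons that share control libraries are not independent. Within-deposit values for senescence could not be had. Intervals are 95%.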

Additional observations from a re-analysis of the deposited data

Results flagged for a closer look

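For IFIH1 the change from young to senescent cells differed between cells with TRF2 and cells with the empty vector by -1.411 on the log2 scale (SE 0.28, adjusted p = 0.03, edgeR interaction term). It was singled out because the test of the difference itself passed the threshold. The difference is not particular to IFIH1: 6 of 26 tested interferon-stimulated genes were called lower in the interaction too, beside 1.13% of all tested genes called in either direction. The means were 4.48 CPM in young and 2.05 CPM in senescent cells with the empty vector, and 6.44 and 1.11 CPM with TRF2, and TRF2 against the empty vector was 0.53 in young cells (adjusted p = 0.31) and -0.88 in senescent cells (adjusted p = 0.017). Only 33 to 73 counts per senescent library lie behind it. The call was lost without any of 8 libraries, at differences between -1.45 and -1.26.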

How the results depend on the processing

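Over 23 alternatives, 780 refitted log2 fold changes of the members were obtained. Of these, 711 kept their side of the threshold and, where called, their direction. Another 33 newly passed it with the same sign, 34 no longer did, and 2 newly passed it with the opposite sign. Of the 711, 33 that were called in neither fit had the other sign. The 2 that newly passed with the opposite sign were TBK1 in senescence with the empty vector, which was -0.13 and not called without offsets. It was 0.52 with GC and length offsets and 0.51 with offsets and a replicate block. With the fold threshold of the study, senescence with the empty vector had 0 members higher and 2 lower, with TRF2 3 lower, and siLMNB1 0 lower. With GC and length offsets the members higher with siLMNB1 came to 1, those lower with TRF2 in senescent cells to 3 and those called lower in the interaction to 2; offsets with a replicate block gave 1, 3 and 2, and 3 lower in senescence with the empty vector. Without the filter on low counts, 1 member was higher in senescence with TRF2, 1 lower with siLMNB1 and 2 lower with TRF2 in senescent cells. With only the libraries compared, these were 1 higher in senescence with TRF2, 4 higher with siLMNB1, 0 lower with TRF2 in senescent cells and 0 in the interaction. DESeq2's Wald test called 3 lower with TRF2 in senescent cells. The causes were not tested. With 1 library left out, members lower with siLMNB1 ranged from 1 to 2, higher with TRF2 in senescent cells from 0 to 1, lower there from 0 to 4, and in the interaction higher from 0 to 1 and lower from 0 to 3; the highest counts of the last 4 came without senescent empty vector replicate 1. A replicate block called 2 members lower with TRF2 in senescent cells, IFIH1 and IFI16 (-0.33, adjusted p = 0.040), and changed no other count of members by over 1.5 times. Residuals of same-numbered libraries had correlations from -0.0945 to 0.0615. These values show no pairing by replicate number, but cannot tell whether libraries were handled in pairs, which the labels do not state. On log2 CPM without length, MAVS ranked first and IFI16 second among the members in young cells. For genes without exonic overlap only 4 members remained (STING1, MAVS, IFIH1 and TLR3), so no count was made. The low counts of TLR3, CGAS and IFIH1 limit their precision.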

Other observations

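Genes that move cGAMP across membranes went in both directions. Of 9 tested of 10 listed, 4 were lower and 2 higher in senescence with the empty vector, beside 31.9% and 32.7% of all tested genes. The volume-regulated channel subunits LRRC8B (-1.56 ± 0.24, adjusted p = 3.6e-05), LRRC8C (-0.84 ± 0.15) and LRRC8D (-0.83 ± 0.09) had the lowest values, and the shared subunit LRRC8A (0.66 ± 0.08) and the transporter SLC46A1 (0.81 ± 0.21) were the 2 higher. LRRC8A was 0.13 with GC and length offsets (adjusted p = 0.17). With siLMNB1 LRRC8B (1.05 ± 0.21) and LRRC8D (0.41 ± 0.09) were higher and LRRC8C (-0.50 ± 0.15) and SLC19A1 (-0.39 ± 0.12) lower, near the 16.4% and 16.1% of all tested genes. With TRF2 in senescent cells the exporter ABCC1 was the 1 gene called, at 0.80 ± 0.16 (adjusted p = 0.0055).

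Of 14 interferons and parts of their receptors, 6 passed the filter on low counts, and IFNE was the only interferon among them. Of the 6, 3 were lower and 1 higher in senescence with the empty vector, beside 31.9% and 32.7% of all tested genes. The kinase TYK2 was higher (0.69 ± 0.12, and -0.01 with the offsets) and JAK1 lower (-0.59 ± 0.12) in senescence with the empty vector. The receptor chains IFNAR2 and IL10RB had -5.92 ± 0.27 and -4.90 ± 0.13, at 1 to 4 and 19 to 21 counts in senescent cells against 164 to 226 and 566 to 752 in young cells with the empty vector. They share 27.7% and 21.6% of their exonic bases with another gene, and whether the counting of overlapping genes sets these values was not tested. With TRF2 in senescent cells IFNE was lower (-2.55 ± 0.71, adjusted p = 0.031), at 1 to 5 counts per library against 4 to 25 with the empty vector.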
